A study of Homo sapiens with 20 samples.

Results

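Super-enhancers that disappeared from the lists after oxaliplatin in wild-type cells were followed through the whole series. The deposited super-enhancer (SE) lists of 16 libraries were merged on chromosomes 1 to 22 and X wherever they overlapped by at least 1 bp. This gave 1873 regions. A region counted as lost when both WT esiCT UNT lists held it and neither WT esiCT OXPT list did. The members were therefore chosen by SE calls in those 4 libraries, and 281 of 1873 regions (15.0%) met the rule. Both UNT lists held 604 of the regions, and both OXPT lists only 180. The UNT lists had 758 and 1265 SEs in libraries A and B, and the OXPT lists 394 and 284. With shorter OXPT lists many regions must drop out, and the part of list size was not tested. What the 4 libraries show in these regions is given below as a description, with no test. Another 161 regions were called in all 4 libraries and are called retained here.

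The cells were HCT-116, a human colorectal cancer line, either wild type (WT) or knocked out for FBXW7 (KO), obtained as ready-made lines, so that KO and WT may also differ in ways other than FBXW7. Cells were transfected for 48 h with a control pool of endoribonuclease-prepared siRNA (esiCT) or a pool against HDAC4 (esiHDAC4). They then stayed untreated (UNT) or received oxaliplatin (OXPT) at 50 µM during the last 24 h. Acetylated lysine 27 of histone H3 (H3K27ac) was measured by ChIP-seq. The 8 groups were WT esiCT UNT, WT esiCT OXPT, WT esiHDAC4 UNT, WT esiHDAC4 OXPT, KO esiCT UNT, KO esiCT OXPT, KO esiHDAC4 UNT and KO esiHDAC4 OXPT, each with a library A and a library B. All cells were transfected, the controls included, and the knockdown itself was not checked here. The labels say that 3 experiments were combined, and p-values here measure only how far paired libraries of a group lie apart, which may be technical.

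H3K27ac marks active promoters and enhancers. A super-enhancer is a cluster of neighbouring enhancers stitched into 1 domain whose summed signal stands above a threshold set within its own library, and such domains often lie beside genes of cell identity, growth and adhesion. FBXW7 is the substrate receptor of a ubiquitin ligase, HDAC4 is a class IIa histone deacetylase that acts in repressor complexes, and oxaliplatin is a platinum drug that crosslinks DNA.

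The libraries differed in list size and in depth, and the 2 did not always go together. Peak lists held from 1752 peaks in KO esiHDAC4 UNT B to 27927 in WT esiCT UNT A, and SE lists from 66 to 1265 domains. The background pileup that fold and p-value imply ran from 1.02 reads in KO esiHDAC4 UNT B to 3.07 reads in WT esiCT UNT B. KO esiHDAC4 UNT B stands apart, so results that rest on it are given with and without it. WT esiCT OXPT B had 10562 peaks against 24346 in WT esiCT OXPT A, at backgrounds of 1.97 and 2.10 reads. WT esiCT UNT A, with the most peaks, had 1.95. Of the epithelial markers checked at their start sites, KRT18 had a peak in 16 libraries, KRT8 in 15, EPCAM in 13 and CDH1 in 8, while the intestinal gene VIL1 had one in 0 and HNF4A in 2. The blood, fibroblast and endothelial, neuronal and liver markers had one in 0 to 3 libraries each.

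Sequences of hg38, plus strand, around the summits that the later results return to are shown first, 300 bases each. CD44 is shown as a listed gene whose start site a lost region covers, ADGRF1 and DRD1 for the KO comparison, and ITGA2 for OXPT in KO cells. FEM1C had a lost region called in 0 of the other 12 libraries. Capitals mark the letters searched for below: GGGCGGGG for KLF/SP, GGAATG for TEAD, CTTTGAT for TCF/LEF and TGANTCA for AP-1, on either strand. The windows are chr11:35138753-35139052 for CD44, chr6:47044773-47045072 for ADGRF1, chr5:53032088-53032387 for ITGA2, chr5:175377994-175378293 for the region nearest DRD1 and chr5:115460838-115461137 for the region nearest FEM1C.
CD44: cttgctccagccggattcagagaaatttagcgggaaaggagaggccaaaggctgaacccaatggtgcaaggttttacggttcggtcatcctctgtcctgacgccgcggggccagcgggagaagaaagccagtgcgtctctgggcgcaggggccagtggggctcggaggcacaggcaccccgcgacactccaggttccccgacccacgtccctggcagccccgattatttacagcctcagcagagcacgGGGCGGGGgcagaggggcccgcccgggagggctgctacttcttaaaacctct
ADGRF1: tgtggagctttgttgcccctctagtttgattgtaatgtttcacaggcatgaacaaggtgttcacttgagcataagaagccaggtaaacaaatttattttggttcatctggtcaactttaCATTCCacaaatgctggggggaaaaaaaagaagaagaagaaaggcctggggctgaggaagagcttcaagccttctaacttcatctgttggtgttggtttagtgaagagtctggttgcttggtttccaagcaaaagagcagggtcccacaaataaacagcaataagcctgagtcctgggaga
ITGA2: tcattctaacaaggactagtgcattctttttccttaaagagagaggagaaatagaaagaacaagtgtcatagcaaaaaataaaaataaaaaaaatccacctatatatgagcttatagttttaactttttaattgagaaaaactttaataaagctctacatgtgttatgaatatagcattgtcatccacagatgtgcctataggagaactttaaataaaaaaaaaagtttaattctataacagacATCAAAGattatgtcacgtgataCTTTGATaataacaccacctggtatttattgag
DRD1: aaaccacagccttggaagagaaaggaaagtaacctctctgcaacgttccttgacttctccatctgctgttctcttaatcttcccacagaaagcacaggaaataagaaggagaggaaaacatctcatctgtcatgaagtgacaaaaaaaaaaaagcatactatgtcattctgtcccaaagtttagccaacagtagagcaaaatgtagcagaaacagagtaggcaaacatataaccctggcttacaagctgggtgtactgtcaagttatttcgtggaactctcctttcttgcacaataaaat
FEM1C: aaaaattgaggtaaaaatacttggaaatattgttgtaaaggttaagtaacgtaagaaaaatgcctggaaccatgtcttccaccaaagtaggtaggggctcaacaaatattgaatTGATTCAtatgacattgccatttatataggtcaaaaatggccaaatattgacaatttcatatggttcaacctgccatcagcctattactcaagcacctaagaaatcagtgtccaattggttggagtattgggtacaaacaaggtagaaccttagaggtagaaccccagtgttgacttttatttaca

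Peaks that both WT esiCT OXPT lists lacked are shown next, for the AP-1 letters they hold. They are the constituents at ERCC1, chr19:45443613-45443912, beyond KLF5, chr13:73334500-73334799, and at PDHX, chr11:34977668-34977967, those with the highest mean fold in WT esiCT UNT among such peaks with the letters.
ERCC1: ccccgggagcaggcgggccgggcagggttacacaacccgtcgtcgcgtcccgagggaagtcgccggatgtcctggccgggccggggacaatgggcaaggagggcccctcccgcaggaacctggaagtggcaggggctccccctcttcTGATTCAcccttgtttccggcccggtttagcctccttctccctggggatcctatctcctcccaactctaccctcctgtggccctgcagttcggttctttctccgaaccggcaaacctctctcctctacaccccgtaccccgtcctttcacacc
KLF5: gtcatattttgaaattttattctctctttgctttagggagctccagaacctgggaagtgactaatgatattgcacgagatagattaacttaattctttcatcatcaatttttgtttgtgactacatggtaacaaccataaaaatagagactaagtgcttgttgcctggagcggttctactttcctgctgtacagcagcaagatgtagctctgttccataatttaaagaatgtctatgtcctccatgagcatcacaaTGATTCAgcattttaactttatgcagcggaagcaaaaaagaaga
PDHX: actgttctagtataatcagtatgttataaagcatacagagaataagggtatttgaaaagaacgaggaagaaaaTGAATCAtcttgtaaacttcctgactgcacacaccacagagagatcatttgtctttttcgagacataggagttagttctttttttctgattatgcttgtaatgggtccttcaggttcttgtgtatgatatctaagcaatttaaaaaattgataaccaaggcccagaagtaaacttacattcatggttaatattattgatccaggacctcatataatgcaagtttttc

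The 281 lost regions spanned 5.59 Mb, with a median width of 17.2 kb and a range of 3.91 to 107 kb. Retained regions were wider, with a median of 46.9 kb. Both widths are those of regions merged over the SE lists of every library. They are therefore not widths in WT esiCT UNT, and a region called in more lists can come out wider. The shares that cover a start site, given next, depend on these widths too. Of the lost regions, 59 (21.0%) covered at least 1 protein-coding start site, 64 sites in all, against 48 of 161 retained regions (29.8%). A further 74 lay in a gene and touched an exon, 48 lay within introns, and 100 lay between genes, where the nearest start site was a median of 70.0 kb away. Chromosomes 1 and 12 held 22 each.

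Among the start sites that lost regions covered, several belong to regulators of transcription: JUND and FOSL2, subunits of AP-1, ID3, an inhibitor of basic helix-loop-helix factors, MNT, a partner of MAX, the repressors NFIL3, NR1D1 and CIC, the factor ONECUT3, RAI1, ZNF395 and the H3K79 methyltransferase DOT1L. Adhesion, matrix and cytoskeleton were represented by CD44, the receptor of hyaluronan, by JUP (plakoglobin), ACTB, TPM4, BAIAP2, AHNAK, SEMA6B, ADGRE5, ANXA11 and the collagen-modifying enzyme PLOD1. Receptors, channels and transporters were F2RL1, a protease-activated receptor, ADGRF1, an adhesion G protein-coupled receptor, LTBR, the lymphotoxin beta receptor, SCNN1A, an epithelial sodium channel subunit, the mechanosensitive channel PIEZO1, the decoy receptor TNFRSF6B, GPR84, GPR137, SLC20A1 and ABCC3. C1QTNF6 and C1QTNF8 encode secreted proteins. Signalling and stress genes were TRIB1, NDRG1, HSPA1B, SH2B3, CAMK2N1, PTP4A2, CTDSP1 and CDC42BPG. Genes of lipid, retinoid and vitamin D handling were LIPH, SULT2B1, PITPNM2, CRABP2 and CYP24A1. RNA-binding proteins were PCBP1, TRA2B and LSM4. The remaining ones were TRNP1, TBC1D19, FAM184A, TMEM244, TRIM8, TRIM47, ENDOD1, KIAA1671, RNF215, MTFP1, AP3D1 and genes known only by an identifier.

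Regions within genes often shared a gene. RAD51B, whose product acts in homologous recombination, held 5 lost regions, among them the widest of all at 107 kb. ZBTB20 held 4 and DST 3. Between genes, 3 regions had KLF5, an epithelial zinc-finger factor, as the nearest start site, and the chromatin protein HMGA2 was the nearest start site or the host of 3. A nearest start site is a name for the region and does not show that the region acts on that gene.

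In the WT esiCT libraries that defined them, the lost regions thinned out more than they emptied. The measure is the mean peak fold over the region, which spreads the deposited fold of each peak over its bases and counts bases without a peak as 0. Its median over the members was 1.37 and 1.13 in WT esiCT UNT A and B, and 0.545 and 0.210 in WT esiCT OXPT A and B. The ratio of OXPT to UNT had a median of 0.384 in letter A, with 279 of 281 regions lower, and 0.179 in letter B, with 281 of 281 lower. Retained regions had median ratios of 0.440 and 0.304, and all merged regions with a peak in UNT had 0.486 and 0.202. Thus retained regions and the whole set were lower in OXPT as well.

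The highest peak of a lost region changed less than its mean. The top fold stood at a median of 0.782 of its UNT value in letter A and 0.747 in letter B, against 0.736 and 0.762 in retained regions. The share of bases covered by peaks stood at a median of 0.465 and 0.201 of its UNT value. In OXPT A 8 members had no peak left, in OXPT B 46, and 228 of 281 kept a peak in both.

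**Figure D1:**
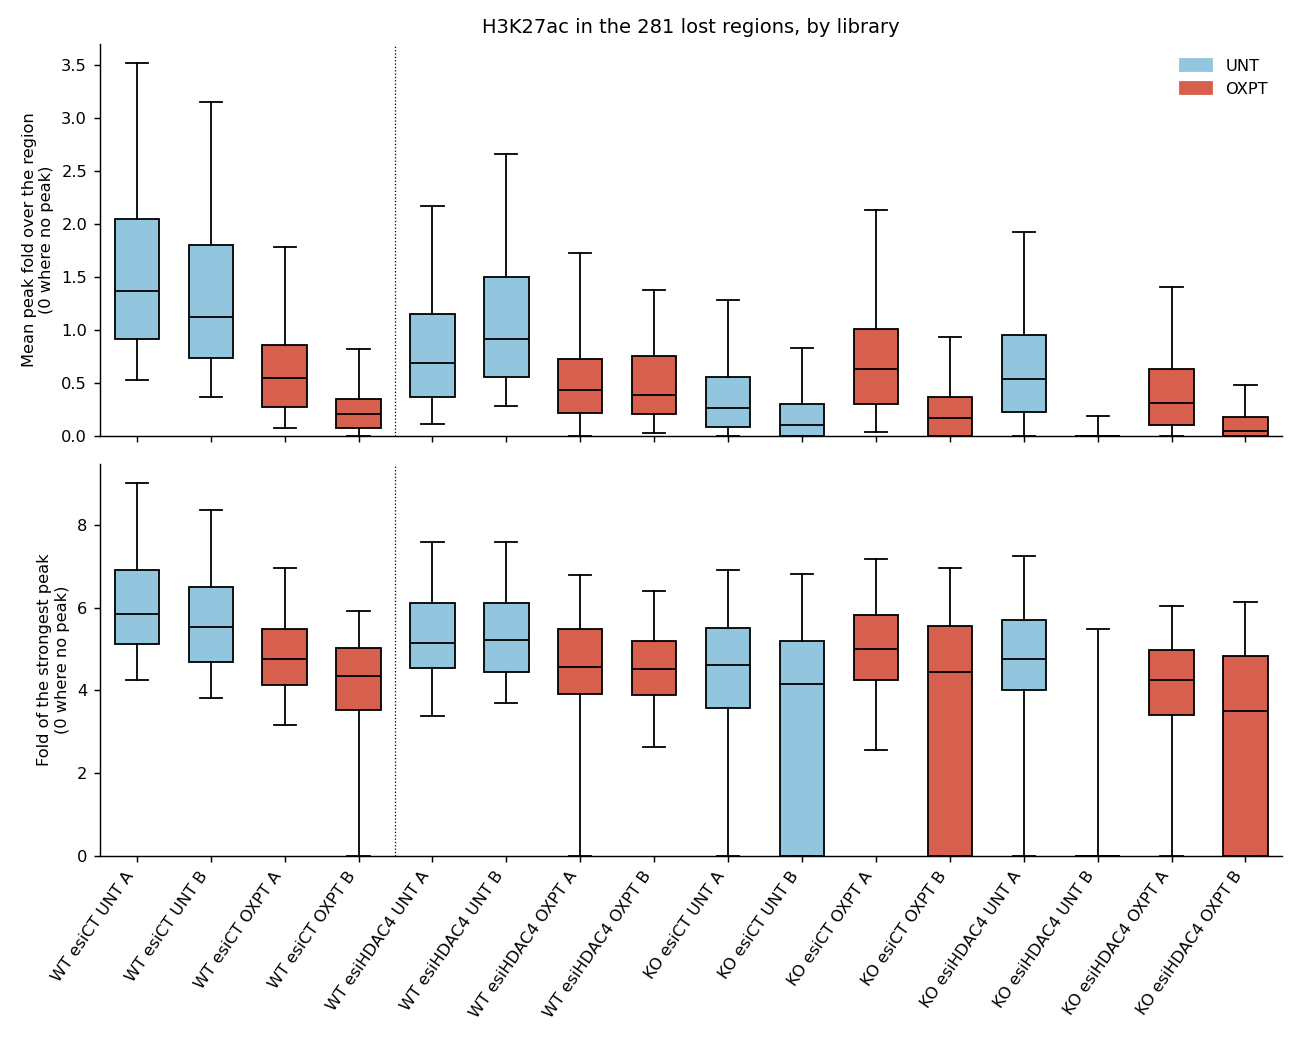
Mean peak fold over each of the 281 lost regions (top) and fold of its strongest peak (bottom) in each of the 16 libraries, without units, as boxes from the lower to the upper quartile with the median as a line and whiskers at the 5th and 95th percentiles. Boxes of UNT libraries are blue and those of OXPT libraries red, and the dotted line parts the 4 WT esiCT libraries that chose the regions, whose medians of mean fold run from 0.210 to 1.37, from the other 12.

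Constituent peaks, the merged peaks that both WT esiCT UNT lists called inside lost regions, numbered 827, with a median of 3 and at most 9 per region. In WT esiCT OXPT 288 (34.8%) were called in both libraries, 311 (37.6%) in 1 and 228 (27.6%) in neither. Of 846 constituents of retained regions 61.5% were called in both and 19.5% in neither. Of all 15440 peaks that both UNT lists share, 32.0% were called in both and 21.2% in neither. The constituents of lost regions were thus called in both OXPT lists about as often as any UNT peak. They were called less often than those of retained regions, but both sets were chosen by SE calls in these same OXPT libraries. That difference is therefore built into the choice and is no finding. Letter B, the smaller list, called 42.8% of them and letter A 64.5%.

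On the deposited scale peaks that remained were weaker, and those that vanished had been the weaker ones in UNT. The fold of constituents called in OXPT had a median log2 ratio to UNT of -0.29 in letter A, where 404 of 533 were lower, and -0.32 in letter B, where 285 of 354 were lower. All shared UNT peaks gave -0.30 in letter A and -0.26 in letter B. In every other group too, the constituents that were called had negative medians against WT esiCT UNT. These ran from -0.06 in WT esiHDAC4 UNT B to -0.41 in KO esiHDAC4 OXPT A, with -0.26 and -0.16 in KO esiCT UNT. The constituents were picked for being called in WT esiCT UNT, so the lower fold is not particular to OXPT. Divided by the median fold of the peaks called in all 16 libraries, however, the mean of both letters turned from -0.30 to 0.10, so the direction holds only on the deposited scale. Constituents found in neither OXPT list had a median UNT fold of 4.05 in A and 3.63 in B and a median width of 1106 bp. Those found in both had 5.69, 5.46 and 3124 bp. Constituents of retained regions had the same order, with 3.73, 3.52 and 1139 bp in neither list and 6.575, 6.18 and 5736 bp in both. The widths are those of peaks merged over all 16 lists, the OXPT lists included. They are therefore not widths in UNT, and a peak called in more lists can come out wider.

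Within a region, the strongest constituent usually stayed. It was called in both OXPT lists in 164 of 281 regions (58.4%) and in neither in 34. All constituents were called in both in 35 regions, among them those in ITGA2 and TGFBR2 and those covering NR1D1, CIC, TPM4 and PIEZO1. All were missing from both in 12 regions, among them those named LONRF2, TRERF1, TMEM244, RBPMS, SLC2A3, KLF5, PLEKHG3, GSE1 and PTPN1. Some of these regions still had a peak in an OXPT library that was not among their constituents, as the far KLF5 region did.

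The same constituents were followed into the 6 groups that the rule did not use. In WT esiHDAC4 UNT 67.2% were called in both libraries and 62 of 827 in neither, and in WT esiHDAC4 OXPT 46.9% and 25.8%. KO esiCT UNT called 24.7% in both and 45.7% in neither, and KO esiCT OXPT 32.2% and 30.1%. KO esiHDAC4 UNT called 7.74% in both and 35.7% in neither, and KO esiHDAC4 OXPT 21.4% and 46.0%. Of all shared UNT peaks, the same 6 groups called 66.1%, 47.7%, 16.2%, 27.1%, 5.33% and 19.1% in both. The WT esiHDAC4 shares called in both lay close to those of all peaks, and the KO shares called in both lay above them. Called in neither were 48.0% of all shared UNT peaks in KO esiCT UNT and 23.9% in KO esiCT OXPT. In KO esiHDAC4 UNT and KO esiHDAC4 OXPT this was 30.65% and 39.4%, and in WT esiHDAC4 UNT and OXPT 8.74% and 21.3%. In KO cells the constituents were thus also missing from both libraries more often than all peaks, except in KO esiCT UNT. KO esiHDAC4 UNT B, with 1752 peaks, called 7.86% of the constituents. KO esiHDAC4 UNT A called 64.2%. The part of list size in these shares was not tested.

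**Figure D2:**
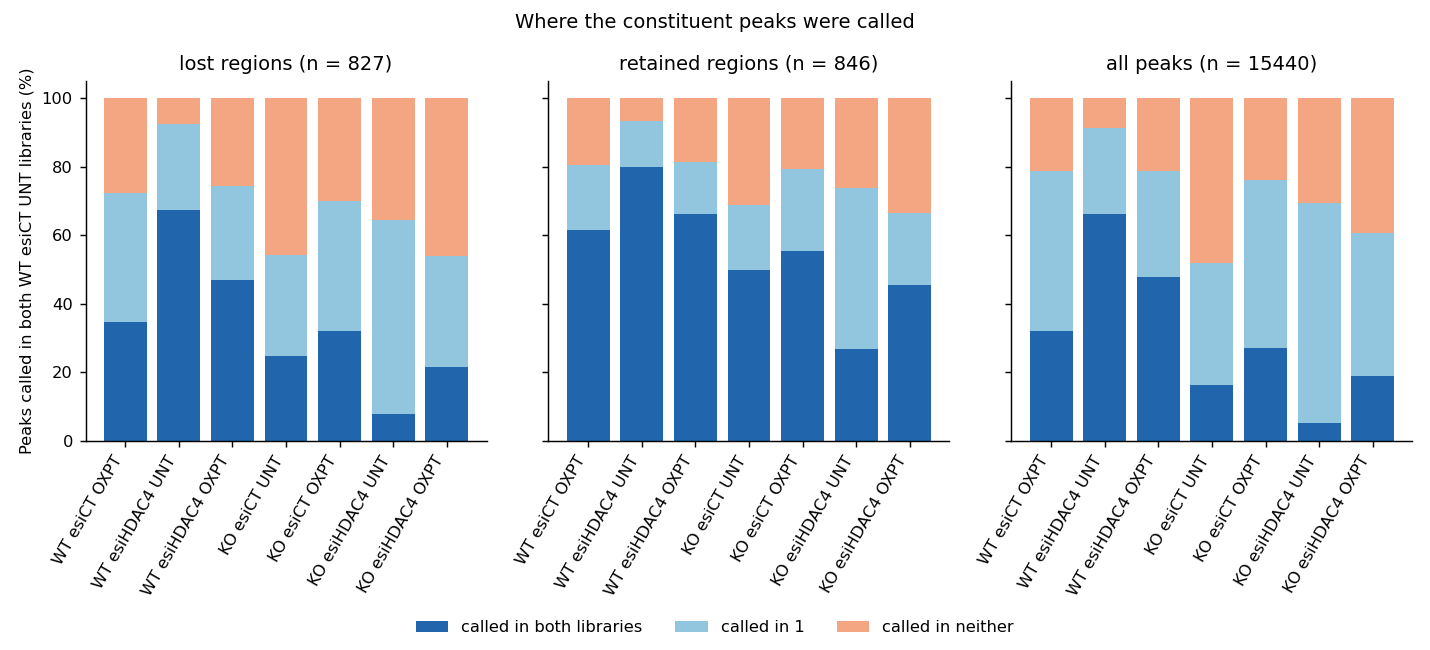
Share in percent of the peaks called in both WT esiCT UNT libraries that were called in both, 1 or neither library of each other group, for the 827 constituents of lost regions, the 846 of retained regions and all 15440 peaks. In WT esiCT OXPT 34.8% of the constituents of lost regions were called in both libraries, against 61.5% of those of retained regions and 32.0% of all peaks. Lost and retained regions were chosen by SE calls in these same libraries.

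Of the gene lists used here, few genes lay at a lost region. The 12 lists hold 175 genes, and 7 of them had their body or start site in one: CD44 of 20 WNT target and feedback genes, ID3 of 21 epithelial transcription factor genes, JUND and FOSL2 of 13 AP-1 and ATF genes, TGFBR2 of 10 TGF-beta genes, and ITGA2 and ITGA6 of 24 adhesion and keratin genes. Regions that only have a listed gene as the nearest start site, such as KLF5 and DUSP6, were not counted. The lists of EGFR ligands and receptors, YAP and TEAD targets, p53 targets, NF-kB, nuclear receptors with MEF2 and class IIa HDACs, cell cycle, and receptor kinases and phosphatases had 0. Of these lists only 3, 2, 2, 1, 6, 2 and 6 genes lay at any merged region, so a 0 says little. Of the WNT, epithelial, AP-1, TGF-beta and adhesion lists, 7, 6, 6, 3 and 13 genes did. Of all merged regions 15.0% were lost. In the values that follow, each pair is library A and then library B.

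AP-1 subunits come first. JUND carried a mean fold of 1.73 and 1.01 in WT esiCT UNT, 0.779 and 0.195 in WT esiCT OXPT, 0.652 and 0.873 in WT esiHDAC4 UNT and 0.598 and 0.471 in WT esiHDAC4 OXPT. In KO cells JUND held 0.421 and 0.183 in esiCT UNT, 0.82 and 0.13 in esiCT OXPT, 0.805 and 0.0149 in esiHDAC4 UNT and 0.476 and 0.0897 in esiHDAC4 OXPT. The JUND region, chr19:18276568-18329314, had 9 constituents, of which 3 were called in both WT esiCT OXPT lists, and it was called as an SE in 8 of the other 12 libraries. FOSL2 carried a mean fold of 2.78 and 0.632 in WT esiCT UNT, 1.04 and 0.0502 in WT esiCT OXPT, 0.732 and 0.644 in WT esiHDAC4 UNT and 0.74 and 0.243 in WT esiHDAC4 OXPT. In KO cells FOSL2 held 0.614 and 0 in esiCT UNT, 0.885 and 0 in esiCT OXPT, 0.754 and 0 in esiHDAC4 UNT and 0.636 and 0.0589 in esiHDAC4 OXPT. FOSL2, at chr2:28389881-28410279, was far higher in WT esiCT UNT A than in any other library and was called in 1 of the other 12.

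ID3 carried a mean fold of 1.43 and 0.906 in WT esiCT UNT, 0.318 and 0.226 in WT esiCT OXPT, 0.509 and 0.956 in WT esiHDAC4 UNT and 0.746 and 0.57 in WT esiHDAC4 OXPT. In KO cells ID3 held 0.279 and 0.282 in esiCT UNT, 0.886 and 0.305 in esiCT OXPT, 0.652 and 0 in esiHDAC4 UNT and 0.611 and 0.102 in esiHDAC4 OXPT. The ID3 region, chr1:23533560-23563103, was covered least in KO esiHDAC4 UNT B, where it had no peak, and was called in 6 of the other 12 libraries. CD44 carried a mean fold of 1.83 and 1.29 in WT esiCT UNT, 0.594 and 0.304 in WT esiCT OXPT, 0.801 and 1.31 in WT esiHDAC4 UNT and 0.6 and 0.505 in WT esiHDAC4 OXPT. In KO cells CD44 held 0.605 and 0.216 in esiCT UNT, 0.767 and 0.331 in esiCT OXPT, 0.838 and 0 in esiHDAC4 UNT and 0.629 and 0.143 in esiHDAC4 OXPT. The CD44 region, chr11:35127220-35176072, spans 48.9 kb around the start of the gene, and among the other libraries only WT esiHDAC4 UNT B, at 1.31, came up to its WT esiCT UNT values. It was an SE in 7 of the other 12 libraries, and switched on with OXPT in KO esiCT, from neither UNT list to both OXPT lists.

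Integrin genes held intronic regions. ITGA2 carried a mean fold of 1.06 and 0.695 in WT esiCT UNT, 0.44 and 0.26 in WT esiCT OXPT, 0.436 and 0.722 in WT esiHDAC4 UNT and 0 and 0.421 in WT esiHDAC4 OXPT. In KO cells ITGA2 held 0 and 0 in esiCT UNT, 0.584 and 0.454 in esiCT OXPT, 0 and 0 in esiHDAC4 UNT and 0 and 0.237 in esiHDAC4 OXPT. ITGA2 encodes the alpha subunit of a collagen receptor, and its region at chr5:53027252-53038816 had no peak in 6 of the 12 other libraries but a peak in both KO esiCT OXPT libraries. ITGA6 carried a mean fold of 0.998 and 1.64 in WT esiCT UNT, 0.263 and 0.412 in WT esiCT OXPT, 0.784 and 0.991 in WT esiHDAC4 UNT and 0.475 and 0.789 in WT esiHDAC4 OXPT. In KO cells ITGA6 held 0.294 and 0.0762 in esiCT UNT, 0.977 and 0 in esiCT OXPT, 0.307 and 0 in esiHDAC4 UNT and 0.877 and 0.149 in esiHDAC4 OXPT. ITGA6, the alpha subunit of a laminin receptor, had a region at chr2:172431905-172449784 that was called in 6 of the other 12 libraries.

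TGFBR2 carried a mean fold of 0.702 and 0.922 in WT esiCT UNT, 0.278 and 0.275 in WT esiCT OXPT, 0.505 and 0.565 in WT esiHDAC4 UNT and 0.434 and 0.226 in WT esiHDAC4 OXPT. In KO cells TGFBR2 held 0.336 and 0.071 in esiCT UNT, 0.589 and 0.197 in esiCT OXPT, 0.579 and 0.0269 in esiHDAC4 UNT and 0.393 and 0.04 in esiHDAC4 OXPT. TGFBR2 encodes the type 2 receptor of TGF-beta. Both constituents of its region, chr3:30657442-30693512, were called in both WT esiCT OXPT lists, and the region was still not an SE there.

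The regions with the highest mean fold in WT esiCT UNT were PLOD1, TRNP1, ADGRF1, IER5L, AHNAK, LTBR with SCNN1A, HMGA2 and IL1RAPL1. HMGA2 carried a mean fold of 5.15 and 5.3 in WT esiCT UNT, 3.11 and 1.07 in WT esiCT OXPT, 3.64 and 3.71 in WT esiHDAC4 UNT and 1.97 and 2.5 in WT esiHDAC4 OXPT. In KO cells HMGA2 held 1.35 and 1.38 in esiCT UNT, 3.14 and 1.56 in esiCT OXPT, 2.33 and 0.232 in esiHDAC4 UNT and 2.21 and 1.24 in esiHDAC4 OXPT. This HMGA2 region lies 92.9 kb from the start site at chr12:65718323-65731532, and it was an SE in 8 of the other 12 libraries. LTBR with SCNN1A carried a mean fold of 5.06 and 4.43 in WT esiCT UNT, 2.07 and 0.761 in WT esiCT OXPT, 3.03 and 2.59 in WT esiHDAC4 UNT and 2.98 and 1.68 in WT esiHDAC4 OXPT. In KO cells these genes held 1.81 and 1.35 in esiCT UNT, 3.75 and 1.37 in esiCT OXPT, 3.33 and 0.298 in esiHDAC4 UNT and 2.22 and 1 in esiHDAC4 OXPT. Their region in KO esiCT went from neither UNT list to both OXPT lists. IL1RAPL1 carried a mean fold of 4.14 and 3.75 in WT esiCT UNT, 0.683 and 0.587 in WT esiCT OXPT, 1.81 and 2.6 in WT esiHDAC4 UNT and 1.31 and 1.12 in WT esiHDAC4 OXPT. In KO cells IL1RAPL1 held 0.411 and 0.515 in esiCT UNT, 0.954 and 0.644 in esiCT OXPT, 1.46 and 0 in esiHDAC4 UNT and 0.424 and 0.274 in esiHDAC4 OXPT. This X-linked region lies 77.8 kb from the start site and was below 0.7 in both WT esiCT OXPT libraries and in most KO libraries.

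ERCC1, KLF5 and PDHX were picked out after their values were seen, for the peaks shown above. ERCC1 encodes a subunit of the nuclease that acts in nucleotide excision repair and repair of platinum crosslinks. ERCC1 carried a mean fold of 1.4 and 0.858 in WT esiCT UNT, 0.889 and 0.305 in WT esiCT OXPT, 0.806 and 0.76 in WT esiHDAC4 UNT and 0.699 and 0.54 in WT esiHDAC4 OXPT. In KO cells ERCC1 held 0.923 and 0.398 in esiCT UNT, 0.788 and 0.364 in esiCT OXPT, 0.621 and 0.0386 in esiHDAC4 UNT and 0.653 and 0.334 in esiHDAC4 OXPT. Its region, chr19:45423765-45456611, was an SE in 0 of the other 12 libraries, though every one of the 16 libraries had a peak in it. The constituent shown had a fold of 5.31 in WT esiCT UNT A and 4.70 in WT esiCT UNT B, and 3.93 in WT esiHDAC4 UNT A, and was called in no other library. The far KLF5 region carried a mean fold of 1.23 and 0.839 in WT esiCT UNT, 0.0774 and 0 in WT esiCT OXPT, 0.499 and 0.542 in WT esiHDAC4 UNT and 0.336 and 0.302 in WT esiHDAC4 OXPT. In KO cells the far KLF5 region held 0.0631 and 0.16 in esiCT UNT, 0.21 and 0.0884 in esiCT OXPT, 0 and 0 in esiHDAC4 UNT and 0 and 0 in esiHDAC4 OXPT. That region, chr13:73325002-73341721, lies 270 kb from KLF5 and lost all of its constituents from both WT esiCT OXPT lists. The KLF5 constituent shown was still called in WT esiHDAC4 OXPT, at folds of 4.966 and 4.831. In KO esiCT it had 2.875 and 4.313 in UNT and 4.406 and 5.133 in OXPT, and no KO esiHDAC4 library called it. The PDHX constituent shown had 3.999 and 6.457 in KO esiCT OXPT and 4.019 and 5.115 in KO esiHDAC4 OXPT. In WT esiHDAC4 OXPT only library B called it, at 4.036.

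**Figure D3:**
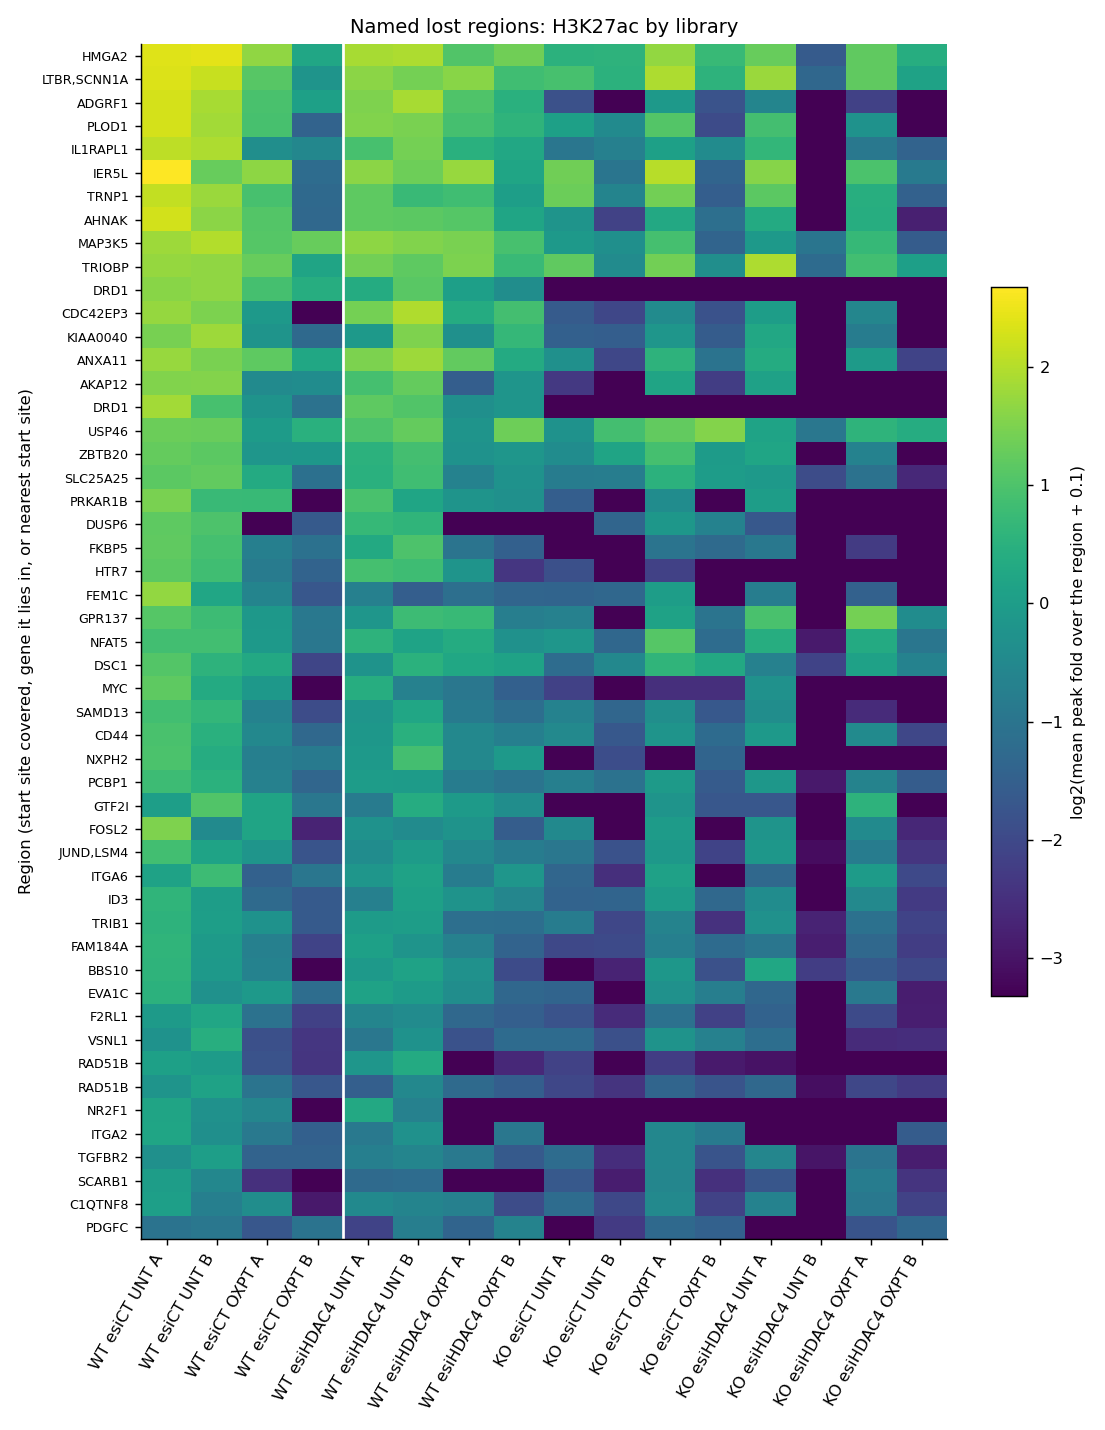
H3K27ac in 51 lost regions (rows, named by a covered start site, the gene they lie in or the nearest start site) and 16 libraries (columns), as log2 of the mean peak fold over the region plus 0.1, sorted by the mean of the 2 WT esiCT UNT libraries. The white line parts the 4 libraries that chose the regions, and KO esiHDAC4 UNT B is dark through most rows.

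Of the lost regions called in 0 of the other 12 libraries, the one nearest FEM1C had no constituent in both WT esiCT OXPT lists. The region nearest FEM1C carried a mean fold of 3.16 and 1.07 in WT esiCT UNT, 0.552 and 0.208 in WT esiCT OXPT, 0.509 and 0.248 in WT esiHDAC4 UNT and 0.354 and 0.288 in WT esiHDAC4 OXPT. In KO cells the region nearest FEM1C held 0.28 and 0.3 in esiCT UNT, 0.905 and 0 in esiCT OXPT, 0.478 and 0 in esiHDAC4 UNT and 0.262 and 0 in esiHDAC4 OXPT. Its highest value by far was in WT esiCT UNT A. USP46 carried a mean fold of 2.42 and 2.38 in WT esiCT UNT, 0.882 and 1.3 in WT esiCT OXPT, 1.89 and 2.29 in WT esiHDAC4 UNT and 0.755 and 2.46 in WT esiHDAC4 OXPT. In KO cells USP46 held 0.733 and 1.74 in esiCT UNT, 2.25 and 2.85 in esiCT OXPT, 1.01 and 0.421 in esiHDAC4 UNT and 1.41 and 1.2 in esiHDAC4 OXPT. The USP46 intron, which was likewise called in 0 of the other 12, had a peak in all 16 libraries. USP46 encodes a deubiquitinase.

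The SE calls themselves varied among the other 12 libraries. Most lost regions were called in few of them: 44 of 281 (15.7%) in none, 43 in 1, 51 in 2, and 2 in as many as 10, those nearest NFAT5 and DSC1. The same spread was not counted over all regions, so it is not given as a trait of the lost ones. By library the count was 110 and 175 of 281 in WT esiHDAC4 UNT, 81 and 57 in WT esiHDAC4 OXPT, 32 and 29 in KO esiCT UNT, 140 and 59 in KO esiCT OXPT, 85 and 2 in KO esiHDAC4 UNT, and 44 and 5 in KO esiHDAC4 OXPT. In WT esiHDAC4 UNT these were 39.15% and 62.3%, against 25.7% and 39.7% of all regions. In WT esiHDAC4 OXPT they were 28.8% and 20.3%, against 36.0% and 22.3%. KO esiCT UNT had 11.4% and 10.3% against 14.15% and 13.35%, and KO esiCT OXPT 49.8% and 21.0% against 46.3% and 21.25%. KO esiHDAC4 UNT had 30.25% and 0.712% against 26.6% and 2.99%, and KO esiHDAC4 OXPT 15.7% and 1.78% against 19.7% and 8.97%. Lost regions were called in both libraries of WT esiHDAC4 UNT more often than all regions were, 31.7% against 21.8%. In both libraries of KO esiCT OXPT they were called about as often, 18.1% against 17.5%. In WT esiHDAC4 OXPT they were called less often, 8.54% against 14.7%, and likewise in KO esiCT UNT, 3.56% against 8.60%, in KO esiHDAC4 OXPT, 1.07% against 7.63%, and in KO esiHDAC4 UNT, 0.356% against 2.78%. These shares are descriptions of lists that overlap in their regions and were not tested.

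**Figure D4:**
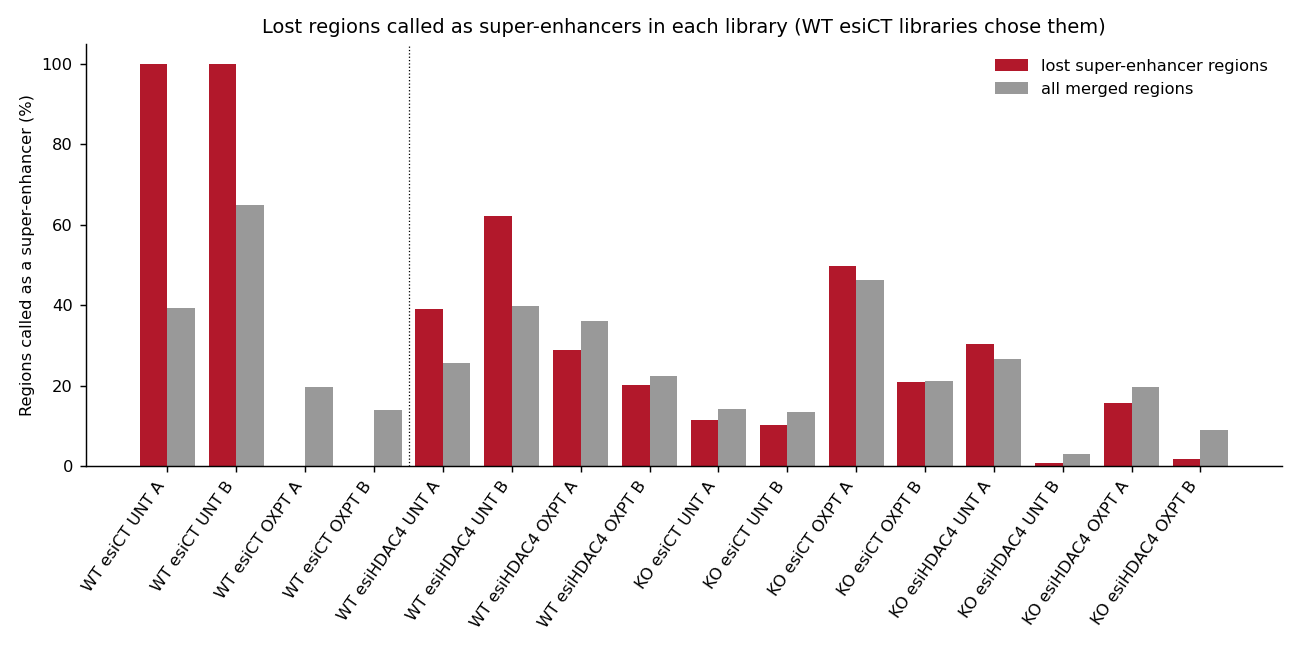
Share in percent of the 281 lost regions (red) and of all 1873 merged regions (grey) called as a super-enhancer in each of the 16 libraries. The 4 libraries left of the dotted line chose the lost regions, which sets their bars at 100% and 0%, and in the other 12 the share runs from 0.712% in KO esiHDAC4 UNT B to 62.3% in WT esiHDAC4 UNT B.

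The same switch was counted in groups that the rule did not use. With OXPT in WT esiHDAC4, 40 of the 281 lost regions (14.2%) were called in both UNT lists and neither OXPT list, where all regions gave 4.06%. They included NR1D1, TXNRD1, which encodes a thioredoxin reductase, PIEZO1, SLC20A1, FKBP5, both regions nearest NR2F1, 3 regions in RAD51B and 1 nearest DRD1. All lost regions were chosen for calls in both WT esiCT UNT lists, which held 32.2% of all regions. The 4.06% stands for 76 regions, and these 40 are among them. The higher share is thus partly built into the choice. A gain, from neither UNT list to both OXPT lists, met 1 of 281, at SMLR1, where all regions gave 1.55%. With OXPT in KO esiCT the loss met 1 lost region, at RAI1, against 0.160% of all regions, and the gain met 19 (6.76%), against 4.81%. The 19 included CD44, AHNAK, LTBR with SCNN1A, TRIOBP, FAM184A, C1QTNF8 and CDC42BPG. In KO esiHDAC4 the loss met 1, at ONECUT3, against 0.0534% of all regions, and the gain met 1, at TRIOBP, against 0.534%. A region had to be called in both UNT lists to be lost. Of the 281, 89 were so called in WT esiHDAC4 UNT, 10 in KO esiCT UNT and 1 in KO esiHDAC4 UNT. KO esiHDAC4 UNT B called only 2 of the 281. The counts of losses therefore cannot be compared between these groups.

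Mean fold over the region was tested with limma over the 12 libraries outside WT esiCT, in a fit with group and letter, on log2(mean fold + 0.1), with Benjamini-Hochberg adjustment over 1871 regions with a peak in at least 1 of them. Depth differed between the groups and was not part of the fit, and 2 libraries per group limit what it can call. OXPT against UNT gave 0 called lost regions in WT esiHDAC4, in KO esiCT and in KO esiHDAC4, where all regions gave 0.0534%, 0% and 0%. At an unadjusted p under 0.05, 17 lost regions were lower with OXPT in WT esiHDAC4, 7 were higher in KO esiCT and 1 was higher in KO esiHDAC4. Over all 1871 regions and in either direction, 107, 106 and 52 had such a p, so the counts of lost regions were close to or below the general rate. Without KO esiHDAC4 UNT B, 16 lost regions were lower in KO esiHDAC4 and 0 higher at an unadjusted p under 0.05, against 115 of all regions, and the median log2 difference of the lost regions there turned from 0 to -0.87. Without KO esiHDAC4 UNT A it was 0.81, so no direction is given for that group. Likewise esiHDAC4 against esiCT in KO OXPT gave 0 called, 0% of all regions, with 6 lost regions lower at an unadjusted p under 0.05, against 81 of all 1871 in either direction. The median log2 difference of the lost regions with OXPT was -0.78 in WT esiHDAC4 and 0.48 in KO esiCT, where all regions had -0.53 and 0.56. Centring each library on regions with a peak in all 16 brought the lost regions to -0.18 and 0.04. Leaving out WT esiHDAC4 UNT B turned the first to 0.05 and leaving out WT esiHDAC4 UNT A made it -1.48, and leaving out 1 KO esiCT library moved the second to between 0.19 and 0.83.

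The regions with the smallest p with OXPT in WT esiHDAC4 lay nearest DUSP6 and NR2F1 and in RAD51B. The region nearest DUSP6 carried a mean fold of 2.19 and 1.89 in WT esiCT UNT, 0 and 0.223 in WT esiCT OXPT, 1.52 and 1.41 in WT esiHDAC4 UNT and 0 and 0 in WT esiHDAC4 OXPT. In KO cells the region nearest DUSP6 held 0 and 0.287 in esiCT UNT, 0.805 and 0.533 in esiCT OXPT, 0.216 and 0 in esiHDAC4 UNT and 0 and 0 in esiHDAC4 OXPT. DUSP6 encodes a phosphatase of ERK kinases and lies 359 kb from the region, chr12:88988523-88993605. Its log2 difference was -3.97 with an SE of 0.903, and its adjusted p by limma was 0.143. Both WT esiHDAC4 OXPT libraries had no peak there, as in 4 KO libraries, so the size depends on the 0.1 added. The NR2F1 region, 379.5 kb from that orphan nuclear receptor gene, had -3.13 with an SE of 0.783 and an adjusted p of 0.198 by limma. It held 1.14 and 0.518 in WT esiHDAC4 UNT and no peak in any other of the 12 libraries.

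With OXPT in KO esiCT, the smallest p among lost regions belonged to ITGA2, with a log2 difference of 2.62, an SE of 0.885 and an adjusted p of 0.495 by limma. FKBP5, a co-chaperone gene of steroid receptors, had 2.19 with an SE of 0.878 and an adjusted p of 0.751 by limma. Both regions had no peak in either KO esiCT UNT library. Neither difference passed the test.

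KO against WT in esiHDAC4, over both treatments, was the comparison with calls. By limma 33 of 281 lost regions (11.7%) were lower in KO and 0 higher, where 9.67% of all regions were lower. The median log2 difference was -1.27 in lost regions and -1.20 in all. Centring each library on regions with a peak in all 16 left 1 lost region lower, with a median of -0.15, so most of the calls rest on the scale between libraries. Leaving out KO esiHDAC4 UNT B left 10, and leaving out any 1 of the 12 libraries gave 2 to 146.

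The stronger DRD1 region carried a mean fold of 3.5 and 1.81 in WT esiCT UNT, 0.747 and 0.377 in WT esiCT OXPT, 2.18 and 1.96 in WT esiHDAC4 UNT and 0.697 and 0.779 in WT esiHDAC4 OXPT. In KO cells the stronger DRD1 region held 0 and 0 in esiCT UNT, 0 and 0 in esiCT OXPT, 0 and 0 in esiHDAC4 UNT and 0 and 0 in esiHDAC4 OXPT. It lies 60.8 kb from the dopamine receptor gene DRD1 at chr5:175375156-175383378, and its log2 difference of KO against WT was -3.75 with an SE of 0.541 and an adjusted p of 0.00205 by limma. The 4 WT esiHDAC4 libraries all had peaks there and the 8 KO libraries had none, so the size of the difference depends on the 0.1 added. Its neighbour carried a mean fold of 2.98 and 3.09 in WT esiCT UNT, 1.78 and 1.24 in WT esiCT OXPT, 1.19 and 2.11 in WT esiHDAC4 UNT and 0.947 and 0.664 in WT esiHDAC4 OXPT. It too had no peak in any KO library, with -3.62, an SE of 0.553 and an adjusted p of 0.00205 by limma. Another region, nearest PTPN1, had peaks in all 4 WT esiHDAC4 libraries and none in 8 KO libraries, which was so for 3 of 281 lost regions (1.07%) and 13 of 1873 regions (0.694%).

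ADGRF1 carried a mean fold of 4.83 and 3.61 in WT esiCT UNT, 1.83 and 0.965 in WT esiCT OXPT, 2.77 and 3.6 in WT esiHDAC4 UNT and 1.94 and 1.29 in WT esiHDAC4 OXPT. In KO cells ADGRF1 held 0.179 and 0 in esiCT UNT, 0.845 and 0.192 in esiCT OXPT, 0.562 and 0 in esiHDAC4 UNT and 0.123 and 0 in esiHDAC4 OXPT. The ADGRF1 region, chr6:47034096-47048731, covers the start of the gene, and its difference was -3.58 with an SE of 0.621 and an adjusted p of 0.00495 by limma. All 4 WT esiHDAC4 libraries lay above the 4 KO esiHDAC4 ones. The next were the regions nearest NXPH2, at -3.36 with an SE of 0.588, and nearest HTR7, at -3.10 with an SE of 0.603. Other lost regions lower in KO, chosen here after their values were seen, were at or nearest ANXA11, NFIL3, CYP24A1, KLF5, PHLDA1, SOCS6, THADA, VRK2, TNFRSF1B and MAX.

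At the edge of the rule, the lost regions with the most signal left in WT esiCT OXPT were HMGA2, MAP3K5, IER5L, ANXA11 and TRIOBP. MAP3K5, a kinase of stress signalling, still held 2.05 and 2.33 there, from 3.38 and 3.89 in UNT. Just outside, among the 162 regions called in exactly 1 OXPT library, the lowest were KIAA1522, SHB, EIF1, TRIB1 and GNG12. KIAA1522 held 0.316 and 0, from 0.677 and 0.392. Mean fold in OXPT, averaged over A and B, ran from 0 to 2.19 in lost regions and from 0.158 to 2.84 in those 162. The medians were 0.371 and 0.591, so the ranges overlapped while the lost regions lay lower. Mean fold is taken per base, while SEs are called on summed signal. The median widths of the merged regions also differed, at 17.2 and 30.0 kb. Whether summed signal separates the 2 sets was not tested.

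The letters of 7 motifs were searched in 300 bases around the strongest WT esiCT UNT summit of each constituent, on both strands: TGANTCA (AP-1), GGAATG (TEAD), CTTTGAT (TCF/LEF), CAAAGTCC (HNF4), GGGCGGGG (KLF/SP), MEF2 and NF-kB. AP-1 letters stood in 38 of the 228 constituents that both OXPT lists lacked (16.7%) and in 19 of the 288 that both held (6.60%). Of all shared UNT peaks of the same kinds, 7.84% and 6.45% had them. TCF/LEF letters stood in 7.89% and 3.47% of the constituents, and TEAD letters in 16.7% and 13.5%. GC content had a median of 42.5% in the missing and 45.3% in the kept constituents, and 54.7% in all shared peaks. The windows of ERCC1, KLF5, PDHX and FEM1C above show the AP-1 letters in capitals. A match is a run of letters and not a measured site.

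**Figure D5:**
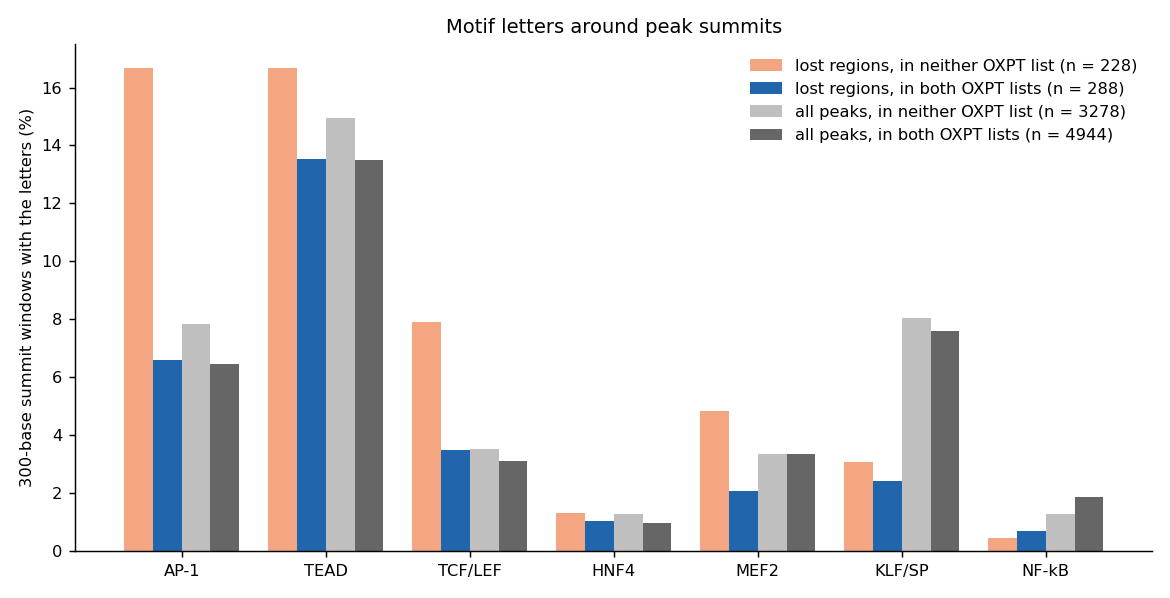
Share in percent of 300-base windows around peak summits that hold the letters of each motif on either strand, for constituents of lost regions called in neither (orange) or both (blue) WT esiCT OXPT lists and for all peaks of both WT esiCT UNT lists of the same kinds (light and dark grey). AP-1 letters stand in 16.7% of the first and 6.60% of the second group.

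By the strongest summit of the whole region, 6.76% of the 281 lost regions and 11.2% of the 161 retained regions held AP-1 letters, and 6.30% of all shared UNT peaks. TEAD letters stood in 14.2% and 14.9%, and TCF/LEF letters in 5.34% and 2.48%. KLF/SP letters stood in 2.14% of lost and 0.621% of retained regions, and in 9.86% of all shared peaks.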

How the data were processed

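H3K27ac ChIP-seq of 16 HCT-116 libraries was used. Per the labels and the study's methods, the authors ran Trimmomatic 0.39 for trimming, Bowtie2 2.4.4 for alignment to hg38, SAMtools 1.18 for removing duplicates, MACS2 2.2.7.1 for peaks of single libraries and ROSE for SEs. The authors deposited, for each peak, the fold (a ratio of summit pileup to local background), −log10 p-values and q-values, and an integer score made from the q-value, and they deposited the positions of SEs. The study kept SEs that also carried H3K4me1, and no source used here says if these lists were filtered so. Inputs were not analysed here. Read counts were not used here, so no count test was run.

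The background pileup was solved from fold and p, with a pileup scale of 0.968 in WT esiCT UNT B. Each list gives depth only through these values, so a region without a peak was not detected at that depth. Constituents were peaks merged by at least 1 bp over the 16 lists. Of 272083 peaks and 8323 SEs, 534 peaks and 28 SEs on Y or other contigs were left out. Genes are protein-coding genes of GENCODE 44. limma 3.58.1 in R 4.3.3 fitted group and letter, the letter following the study's own design. Python 3.11.15, pandas 2.3.3 and scipy 1.17.1 did the rest. The fit was tested on simulated data. A 0.1 pseudocount understates changes of low regions. The threshold was an adjusted p of 0.05. Merging, overlap, peak threshold, scaling, pseudocount, filter, letter and each left-out library were varied.

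Named regions were the 8 widest, the 8 with the highest mean fold in WT esiCT UNT, up to 5 called in the most and 5 in the fewest of the other 12 libraries, 5 on each side of the rule's edge, those at listed genes, and the 5 with the smallest p in each limma comparison. The members, lists and tests were chosen with earlier results of these data known. Some regions are not reported here by name.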

Additional observations from a re-analysis of the deposited data

Results flagged for a closer look

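The number of lost regions called as an SE moved in opposite directions with OXPT in WT esiHDAC4 and KO esiCT. In WT esiHDAC4 it changed by -29 in letter A and by -118 in letter B. In KO esiCT it changed by 108 in letter A and by 30 in letter B. Over all merged regions the number called went from 481 to 674 in WT esiHDAC4 letter A, opposite to the lost regions, and from 744 to 418 in letter B, and in KO esiCT from 265 to 868 in letter A and from 250 to 398 in letter B. Peak lists moved the same way in KO esiCT, from 12639 to 21875 peaks in letter A and from 6126 to 8216 in letter B, and in WT esiHDAC4 from 20234 to 20136 and from 27335 to 19352. The mean fold of 86 lost regions (30.6%) was lower with OXPT in both WT esiHDAC4 letters and higher in both KO esiCT letters, and 0 moved the other way. All merged regions gave 488 of 1873 (26.1%) and 4. Among the named regions these included CD44, ITGA2, FKBP5, ADGRF1, HMGA2 and DUSP6. The difference between the groups was not tested, and they differ in both FBXW7 and esiRNA.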

How the results depend on the processing

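The number of lost regions, 281, was 277 to 292 under other merging rules, and leaving out 1 of the 4 WT esiCT libraries gave 328 to 829, the highest without WT esiCT UNT replicate A. The share of constituents called in both WT esiCT OXPT libraries, 34.8%, was 2.27% when peaks needed a −log10 q of 10 or more, and 42.8% to 64.5% with a single letter. Their median log2 fold ratio in WT esiCT OXPT, -0.30, was -0.27 without the peak caller's pseudocount and -0.78 with missing peaks set to the lowest fold of the list, and -0.32 to -0.29 with a single letter. Scaled to the peaks called in all 16 libraries it reversed to 0.10, and the ratios of the other groups reversed to 0.0436 in WT esiHDAC4 UNT, 0.0502 in WT esiHDAC4 OXPT, 0.0435 in KO esiCT UNT, 0.0139 in KO esiCT OXPT, 0.0379 in KO esiHDAC4 UNT and 0.0427 in KO esiHDAC4 OXPT. The cause was not tested.

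Lost regions called by limma in KO against WT in esiHDAC4, 33 with the letter as a block, were 8 with no replicate block, 1 after centring, 21 by the share covered, 1 when peaks needed a −log10 q of 10 or more, and 26 to 41 under the other settings. Each of the 12 libraries left out in turn moved this number by over 1.5 times, to between 2 and 146. It was lowest without WT esiHDAC4 UNT B, WT esiHDAC4 OXPT A or KO esiHDAC4 OXPT B, and highest without KO esiHDAC4 UNT A. The other 4 limma comparisons called 0 lost regions under every setting run, 0 to 0 when a library was left out. The losses with OXPT in groups outside the rule, 42 in all, were 43 with 50% overlap and 40 when lists were merged within the stitching distance of ROSE, both chosen after seeing the data. Depth limits every absence of a peak, most in KO esiHDAC4 UNT B.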
